A study of Mus musculus with 24 samples.

Results

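Preadipocytes (PA), the precursors of fat cells, were sorted from the gonadal fat of lean and of obese mice and their RNA was compared on arrays. The comparison took all arrays whose title group was HFD PA (3 arrays) or ND PA (3 arrays), which were 6 of the 24 arrays of the series. The ND PA came from male C57Bl/6 mice on a normal diet (ND), labelled lean, and the HFD PA from male C57Bl/6 mice on a high-fat diet (HFD, 60% fat), labelled obese. Each array held a pool of 3 to 4 mice, so the spread between arrays is a spread between pools. The sources used here give no mouse age, no feeding time for the HFD PA mice and no surface markers for the PA gate. The other arrays held macrophages (ATM) and dendritic cells (ATDC) of adipose tissue, the macrophages split by the surface protein CD11c. Those of ND and HFD mice entered here as immune sorts of the same kind of fat. A further 5 arrays held CD11c+ (3) and CD11c- (2) ATM of weight-loss mice, 12 weeks on HFD and then 8 weeks off it, and entered only the shared estimate of spread, the filter and the choice of probe row.

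Preadipocytes lie in the stroma of fat, carry receptors for platelet-derived growth factors, and become adipocytes when PPARγ and C/EBP transcription factors switch on the genes of lipid storage. They also make most of the collagen and other matrix around fat cells, and in fibrosis some stromal cells turn into myofibroblasts, which add contractile fibres to matrix production. Gonadal fat of obese mice takes in many macrophages, which gather around dying fat cells. A sorted preadipocyte pool is a bulk sample: fewer cells of a type and less RNA per cell cannot be told apart in it.

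Stromal cells were released from the fat with collagenase and live cells were sorted; RNA was amplified to cDNA and hybridised to 1-colour arrays. The PA label was checked first. The list of progenitor and fibroblast identity genes (Pdgfra, Pdgfrb, Cd34, Dcn, Lum, collagens I and III and others, 15 tested) had a median log2 value between 10.12 and 10.48 on the 6 PA arrays, against 8.16 in CD11c- ATM, 6.89 in CD11c+ ATM and 6.94 in ATDC of HFD mice. Macrophage markers were present on the PA arrays too and moved with diet. The median of the 15 macrophage identity genes was 5.52, 4.71 and 4.17 on ND replicates 1, 2 and 3 and 6.26, 5.67 and 8.08 on HFD replicates 1, 2 and 3, below the 10.15, 10.05 and 8.49 of the obese CD11c- ATM, CD11c+ ATM and ATDC. The 15 leukocyte markers stood at 6.31, 4.15 and 3.47 on the ND arrays and at 6.24, 5.81 and 7.69 on the HFD arrays. Markers of T and NK cells, B cells and mesothelium passed limma's test in 0 of 29 cases. An unadjusted p under 0.05 was found for 1 of them, against 11.6% of all tested genes. Endothelial and mural markers did move: 10 of 12 and 5 of 10 had an unadjusted p under 0.05, all of these higher in HFD PA. ND replicate 1 stood apart from its group: it correlated with the other ND arrays at r = 0.955 each and with HFD replicate 1 at 0.959, while ND replicates 2 and 3 correlated at 0.966 across genes. HFD replicate 2 also stood apart: it correlated with HFD replicates 1 and 3 at 0.957 and 0.952, while those 2 correlated at 0.978. HFD replicate 3 carried the highest macrophage signal. Results that move with these arrays are therefore given with and without them.

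**Figure D1:**
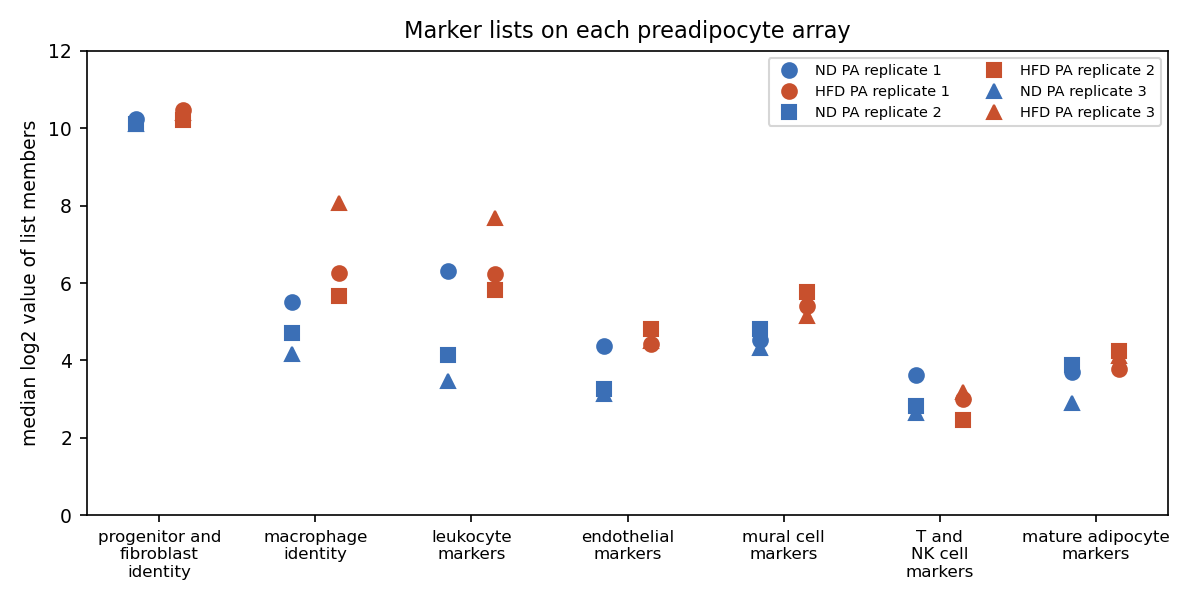
Median log2 value of the members of each marker list (vertical axis) on each of the 3 ND PA arrays (blue) and 3 HFD PA arrays (red), with 1 symbol per replicate. The progenitor list lies near 10 on all 6 arrays, while the macrophage list runs from 4.17 to 5.52 on the ND arrays and from 5.67 to 8.08 on the HFD arrays.

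Differences are HFD minus ND on the log2 scale, ± the standard error (SE) of a limma fit to all 24 arrays, in which the 9 groups share 1 estimate of each gene's spread; array values are listed for replicates 1, 2 and 3 in turn. That spread is pooled over all 9 groups, immune sorts included, and can be smaller or larger than the spread of the PA arrays alone. A gene passed the test at a Benjamini-Hochberg adjusted p under 0.05 over 15496 genes. Of these, 401 passed (2.59%): 262 were higher in HFD PA (1.69%) and 139 were lower (0.897%). An unadjusted p under 0.05 was found for 1804 of the tested genes (11.6%), the share to set beside such counts in the gene lists. In 374 of the 401 the 3 HFD arrays and the 3 ND arrays did not overlap, while 3067 of all tested genes (19.8%) showed no overlap. Large rises were more frequent than large falls: 103 genes rose and 35 fell by more than 4-fold. The median difference of all tested genes was -0.017, and the 5th and 95th percentiles of the differences were -0.717 and 0.874. When 1 PA array was left out the count ran from 177 (without HFD replicate 3) to 505 (without ND replicate 1), and 135 of the 401 genes, 83 higher and 52 lower, passed in all 6 of these fits. With only the 6 PA arrays in the fit, 180 genes passed, 132 of them among the 401.

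Among the named genes that stood higher in obese PA than in any obese immune sort, the 3 with the largest rises were matrix genes. Mmp3, which encodes stromelysin-1, a protease that cleaves matrix proteins and activates other proteases, had values of 3.45, 3.30 and 4.07 on the ND arrays and 9.02, 8.36 and 8.41 on the HFD arrays. Col8a1, which encodes a short-chain collagen of vessel walls and scars, had values of 4.25, 3.47 and 3.51 on the ND arrays and 8.23, 8.50 and 8.66 on the HFD arrays. Timp1, a secreted inhibitor of matrix metalloproteinases, stood at 7.04, 5.21 and 6.38 in ND PA and at 10.22, 9.81 and 10.34 in HFD PA. For all 3 genes the lowest HFD array lay more than 2.5 log2 units above the highest ND array. The rises were 4.99 ± 0.77 for Mmp3 (31.8-fold, adjusted p = 0.000862), 4.72 ± 0.62 for Col8a1 (26.4-fold, adjusted p = 0.000212) and 3.91 ± 0.58 for Timp1 (15.1-fold, adjusted p = 0.000606). In HFD CD11c- ATM, the immune sort where they were highest, these genes averaged 4.91, 5.26 and 7.81.

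The promoters of Mmp3 and Col8a1 are shown because these genes led the matrix group. They are RefSeq windows of 300 bases (GRCm38.p6), from 250 bases before the transcription start to 50 after it, read 5′ to 3′ on the gene's strand. Mmp3 lies on chr9:7445572-7445871 (plus strand) and Col8a1 on chr16:57754688-57754987 (minus strand). Capitals mark a match to the AP-1 motif TGANTCA, to the PU.1-type ETS motif GAGGAAG or to their reverse complements.
Mmp3: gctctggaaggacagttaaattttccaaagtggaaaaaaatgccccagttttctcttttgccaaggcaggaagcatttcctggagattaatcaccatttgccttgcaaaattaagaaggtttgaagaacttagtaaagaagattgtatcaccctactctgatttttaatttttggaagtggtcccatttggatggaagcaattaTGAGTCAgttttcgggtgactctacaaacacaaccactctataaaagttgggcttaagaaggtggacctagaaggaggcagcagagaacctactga
Col8a1: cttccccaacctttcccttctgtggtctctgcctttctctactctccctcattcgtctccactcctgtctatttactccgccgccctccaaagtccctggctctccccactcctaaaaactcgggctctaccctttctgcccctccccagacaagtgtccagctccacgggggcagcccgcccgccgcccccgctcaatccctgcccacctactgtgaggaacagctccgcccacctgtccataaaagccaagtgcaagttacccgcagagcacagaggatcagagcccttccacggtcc
The Mmp3 window holds 1 AP-1 match, which begins 46 bases before the start. The Col8a1 window holds neither motif, which says only that these letters are not in this window.

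Of the 28 tested matrix proteases and inhibitors, 3 rose (Mmp3, Timp1 and Mmp12) and 0 fell, with a list median of 0.48. Mmp12, the macrophage elastase, stood at 4.94, 4.97 and 4.36 in ND PA and at 8.24, 7.48 and 9.24 in HFD PA, a rise of 3.56 ± 0.45 (adjusted p = 0.000175). Unlike Mmp3 and Timp1, its HFD PA level lay below the means of CD11c+ ATM and ATDC from the same diet.

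Several glycoproteins of the matrix rose as well. In the list of 36 matrix glycoproteins and proteoglycans 4 rose (Thbs2, Tnc, Postn and Mfap4), 1 fell and 26 had a positive difference, with a median of 0.49. Thbs2, which encodes the antiangiogenic matricellular protein thrombospondin-2, was uneven in ND PA at 6.25, 3.60 and 5.93 and even in HFD PA at 8.61, 8.57 and 8.37, a rise of 3.26 ± 0.64 (adjusted p = 0.00674). Tnc, the gene of tenascin-C, a glycoprotein of wounds and scars, was at or under the array median on all ND arrays, at 2.37, 2.76 and 2.47, and reached 4.73, 6.74 and 5.64 on the HFD arrays. Its rise was 3.17 ± 0.46 (adjusted p = 0.000532). Because no ND array exceeded its own median, the mark used here for a measurable signal, the difference counted from that median is at least 2.66. Postn, the gene of periostin, which helps collagen fibrils to crosslink, rose by 2.17 ± 0.48 (adjusted p = 0.0176) from 9.20, 8.87 and 8.99 to 11.05, 11.32 and 11.20. The member that fell was Has2, a synthase of the matrix polysaccharide hyaluronan, at 7.06, 7.08 and 7.12 in ND PA and 5.46, 4.58 and 5.86 in HFD PA (fell by 1.79 ± 0.39, adjusted p = 0.014). Thbs2 missed the threshold in the fit of the 6 PA arrays alone (adjusted p = 0.0642), as did Mfap4 (0.123) and Has2 (0.0503). With all arrays in the fit Postn lost its call on leaving out ND replicate 2 or 3 or HFD replicate 2 or 3 (adjusted p as high as 0.0786), Mfap4 on leaving out ND replicate 2 or 3 or HFD replicate 1 or 3 (adjusted p as high as 0.226) and Has2 on leaving out ND replicate 2 or 3 or HFD replicate 2 (adjusted p as high as 0.0687).

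Among 26 collagens 3 rose (Col8a1, Col12a1 and Col18a1) and 2 fell (Col4a3 and Col4a4), and 19 of 26 differences were positive with a median of 0.67. The fibrillar collagen Col1a1 stood at 7.67, 6.78 and 6.44 in ND PA and 8.50, 9.43 and 8.58 in HFD PA, so that its arrays did not overlap, but its difference of 1.88 ± 0.54 missed the threshold (adjusted p = 0.0701). Col18a1, the basement membrane collagen that yields endostatin, rose by 1.21 ± 0.28 (adjusted p = 0.0211) and Col12a1, a collagen on the surface of fibrils, by 1.29 ± 0.33 (adjusted p = 0.0406). Col4a3 and Col4a4 encode 2 chains of a specialised basement membrane network. They were low throughout, at 3.59, 3.84 and 3.07 and 3.96, 3.48 and 3.61 in ND PA against 2.40, 2.67 and 2.62 and 2.69, 2.82 and 2.45 in HFD PA, where no array exceeded its median. Counted to that median, the differences of Col4a3 and Col4a4 were -0.46 and -0.64, least sizes. In the fit of 6 arrays Col8a1 passed (adjusted p = 0.000664) and the other 4 did not (adjusted p between 0.0775 for Col4a4 and 0.201 for Col12a1). Col18a1 lost its call in the fit of all arrays on leaving out ND replicate 2 or 3 or HFD replicate 1 or 3 (adjusted p as high as 0.134), Col12a1 on leaving out ND replicate 1, 2 or 3 or HFD replicate 2 or 3 (adjusted p as high as 0.262), Col4a3 on leaving out ND replicate 2 or HFD replicate 1 or 3 (adjusted p as high as 0.132) and Col4a4 on leaving out HFD replicate 3 (adjusted p = 0.0794). Of the 15 genes for collagen maturation and crosslinking, 0 passed limma's test in either direction and 0 had an unadjusted p under 0.05, although 15 of 15 differences were positive with a median of 0.60.

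Contractile and myofibroblast genes formed the stromal list with the highest share of calls. Of 16 tested members 7 rose and 1 fell, and 14 differences were positive (median 0.65, against -0.017 for all genes). Acta2, the gene of smooth muscle alpha-actin, stood at 5.23, 4.81 and 4.37 in ND PA and at 6.48, 8.32 and 6.83 in HFD PA and rose by 2.41 ± 0.47 (adjusted p = 0.00695). Tagln, which encodes the actin-binding protein transgelin, stood at 4.90, 4.54 and 4.65 in ND PA and 6.25, 7.99 and 6.64 in HFD PA and rose by 2.26 ± 0.38 (adjusted p = 0.00169). HFD replicate 2 was the highest array for both genes, but the lowest HFD array still exceeded the highest ND array. Actn1, an actin crosslinker, rose by 2.53 ± 0.56, and Cdh11, a cadherin of fibroblasts and myofibroblasts, by 2.38 ± 0.53 (adjusted p = 0.0162 and 0.0166). The other members that rose were Tpm2 (1.47 ± 0.29), Palld (1.61 ± 0.30) and Ltbp2 (1.84 ± 0.25), and 6 of the 7, all but Actn1, stood higher in obese PA than in each obese immune sort. Lmod1, a smooth muscle actin nucleator, went the other way and fell by 1.99 ± 0.33, from 5.20, 6.18 and 4.92 to 3.21, 3.98 and 3.15 (adjusted p = 0.00166). Between 5 and 8 members passed when a PA array was left out: Acta2 lost its call on leaving out ND replicate 3 (adjusted p = 0.0518), Cdh11 on leaving out ND replicate 1 or HFD replicate 1 or 3 (adjusted p as high as 0.0841), Actn1 on leaving out ND replicate 3 or HFD replicate 3 (adjusted p as high as 0.122) and Tpm2 on leaving out ND replicate 2 or 3 (adjusted p as high as 0.0518). A total of 5 passed in the fit of 6 arrays, where Acta2, Tagln and Lmod1 missed the threshold (adjusted p = 0.0681, 0.0575 and 0.0598).

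Genes near TGF-beta signalling moved in part. Of 20 tested ligands, receptors and targets 3 rose and 0 fell, with a median of 0.36. These were Ccn2, a secreted growth factor of fibrosis and a TGF-beta and YAP target, at 5.68, 4.72 and 4.11 in ND PA and 6.31, 7.80 and 7.81 in HFD PA (2.47 ± 0.53, adjusted p = 0.0145), Ltbp2, whose protein belongs to the latent TGF-beta binding family, at 2.70, 2.95 and 2.47 in ND PA and 4.77, 3.93 and 4.94 in HFD PA (1.84 ± 0.25, adjusted p = 0.000305), and Tgfbi, at 7.76, 6.80 and 6.34 in ND PA and 8.26, 7.91 and 8.66 in HFD PA (1.31 ± 0.33, adjusted p = 0.0348). No ND array exceeded its median for Ltbp2, which gives a least rise of 1.49. Tgfbi stood higher in each immune sort than in obese PA, and it and Ccn2 missed the threshold in the fit of 6 arrays (adjusted p = 0.172 and 0.0777). With the mean of all its probe rows in place of 1, the difference of Ccn2 was 1.28 (adjusted p = 0.0976). Ccn2 lost its call on leaving out ND replicate 2 or 3 or HFD replicate 2 or 3 (adjusted p as high as 0.105), and Tgfbi on leaving out ND replicate 2 or 3 or HFD replicate 1 or 3 (adjusted p as high as 0.225). Mural cells of vessels also carry contractile genes: 2 of 10 tested mural markers rose, Acta2 and Notch3 (1.66 ± 0.31, adjusted p = 0.00488; 0.0713 in the fit of 6 arrays), and the list's median level was 4.54, 4.82 and 4.33 on the ND arrays and 5.42, 5.77 and 5.16 on the HFD arrays. The part of mural cells in the contractile genes was not tested.

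Several other genes with large rises also stood above all obese immune sorts. Mlana, known as a melanosome antigen, stood at 3.09, 3.28 and 5.04 in ND PA and 8.25, 6.81 and 7.83 in HFD PA, a rise of 3.83 ± 0.55 (adjusted p = 0.000497). Fhl2, a LIM-domain cofactor of transcription, rose by 3.16 ± 0.47 from 5.17, 4.20 and 5.62 to 8.31, 8.22 and 7.94 (adjusted p = 0.000566). Cpz, a secreted carboxypeptidase that binds Wnt proteins, rose by 3.07 ± 0.48, from 4.75, 3.70 and 2.17 to 7.14, 6.30 and 6.39 (adjusted p = 0.00091). The HFD and ND arrays did not overlap for any of the 3 genes, which the rule that picked the largest changes required. Mlana and Fhl2 also passed in the fit of 6 arrays, and Cpz did not (adjusted p = 0.0655).

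**Figure D2:**
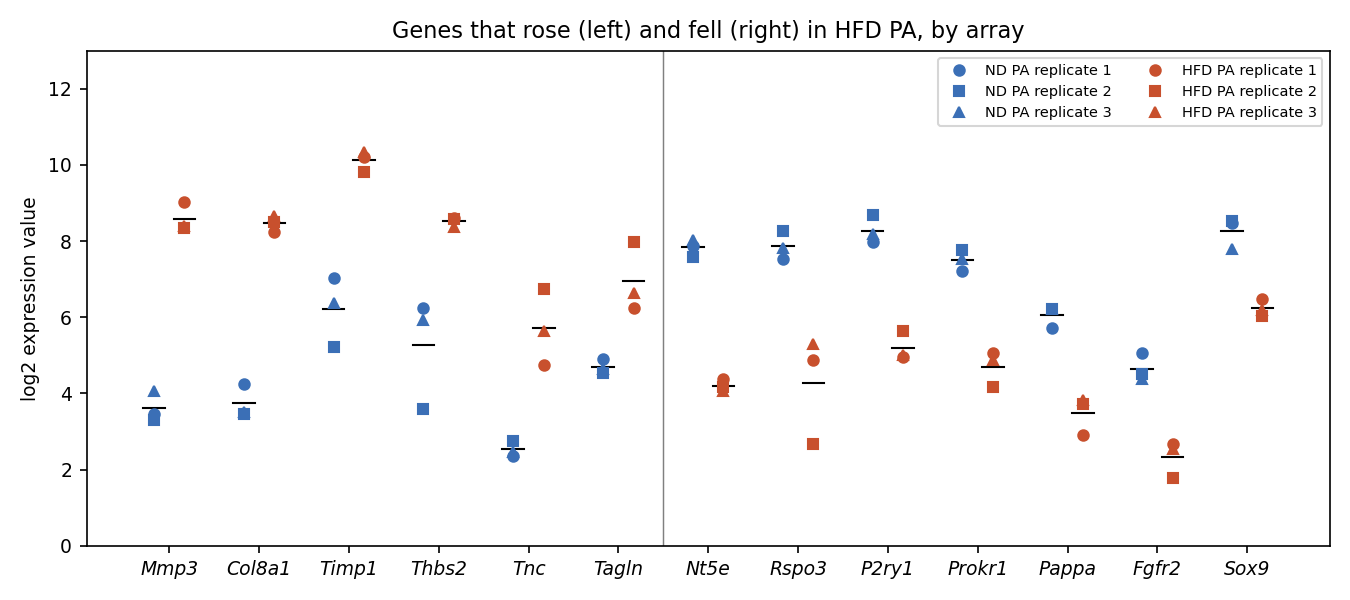
Log2 expression value (vertical axis) of 6 genes that rose and 7 that fell, on each of the 3 ND PA arrays (blue) and 3 HFD PA arrays (red); short black lines are group means. For each gene shown the 2 groups of arrays do not overlap, which the rule that picked the largest changes required of all but Tagln and Sox9. Rspo3 and Thbs2 each have 1 array far from the other 2 of its group.

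A second set of genes that rose is known from macrophages. Of 15 macrophage identity genes 8 rose and 0 fell (median difference 1.75), of 20 lipid-associated macrophage genes 11 rose and 0 fell (1.18), and of 15 leukocyte markers 6 rose and 0 fell (1.92). Atp6v0d2, a subunit of the vacuolar proton pump found in osteoclasts and macrophages, had the largest rise of all named genes: 1.95, 3.62 and 1.45 on the ND arrays, 7.16, 6.90 and 8.67 on the HFD arrays, 5.23 ± 0.60 (adjusted p = 6.08e-05). ND replicates 1 and 3 lay under their array medians for this gene. The size and rank of its rise therefore rest in part on values too low to measure. Trem2, a lipid-sensing receptor of macrophages in obese fat, stood at 3.11, 4.34 and 3.45 in ND PA and 7.20, 6.37 and 8.56 in HFD PA and rose by 3.74 ± 0.67 (adjusted p = 0.00348). Adgre1, which encodes the macrophage antigen F4/80, stood at 5.18, 4.96 and 2.83 in ND PA and 7.07, 6.28 and 8.55 in HFD PA and rose by 2.98 ± 0.54 (adjusted p = 0.00399). HFD replicate 3, the array with the highest macrophage marker level, had the highest value for each of the 3 genes. Cd68, a lysosomal glycoprotein of macrophages, rose by 2.94 ± 0.49 from 7.12, 6.55 and 4.53 to 8.83, 7.98 and 10.20 (adjusted p = 0.00173), and Clec12a, an inhibitory lectin receptor of myeloid cells, by 3.49 ± 0.56 from 4.79, 2.63 and 2.49 to 7.02, 5.21 and 8.17 (adjusted p = 0.00108). Ptprc, the pan-leukocyte gene CD45, did not pass: it stood at 6.43, 2.91 and 3.47 on the ND arrays and 6.24, 5.52 and 7.69 on the HFD arrays, and ND replicate 1 exceeded 2 of the HFD arrays (difference 2.21 ± 0.60, adjusted p = 0.0546).

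These calls depended on which arrays were in the fit. In the fit of the 6 PA arrays 0 macrophage identity genes, 4 lipid-associated genes and 0 leukocyte markers passed. Atp6v0d2, Trem2 and Mmp12 remained past the threshold in that fit (adjusted p = 0.0188, 0.028 and 0.0183), and Adgre1, Cd68 and Clec12a did not (0.119, 0.127 and 0.111). When 1 PA array was left out of the fit of all arrays, the leukocyte count ran from 1 (without HFD replicate 3) to 11 (without ND replicate 1) and the macrophage identity count from 4 (without HFD replicate 3, and also without ND replicate 3) to 11 (without HFD replicate 2). How far macrophages inside the sorted pools account for these rises was not tested.

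The promoters of 3 of these myeloid genes are shown in the same RefSeq windows, for comparison with the matrix genes above. Cd68 lies on chr11:69666121-69666420 (minus strand), Trem2 on chr17:48346151-48346450 (plus strand) and Clec12a on chr6:129349994-129350293 (plus strand). Capitals mark AP-1 and PU.1-type ETS matches as before; PU.1 is the ETS factor of the myeloid lineage.
Cd68: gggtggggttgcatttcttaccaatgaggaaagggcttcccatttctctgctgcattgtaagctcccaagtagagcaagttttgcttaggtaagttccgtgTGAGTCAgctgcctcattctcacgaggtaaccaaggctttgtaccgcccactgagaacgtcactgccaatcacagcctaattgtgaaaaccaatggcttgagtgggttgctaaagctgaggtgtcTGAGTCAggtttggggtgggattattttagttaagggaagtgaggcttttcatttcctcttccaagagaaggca
Trem2: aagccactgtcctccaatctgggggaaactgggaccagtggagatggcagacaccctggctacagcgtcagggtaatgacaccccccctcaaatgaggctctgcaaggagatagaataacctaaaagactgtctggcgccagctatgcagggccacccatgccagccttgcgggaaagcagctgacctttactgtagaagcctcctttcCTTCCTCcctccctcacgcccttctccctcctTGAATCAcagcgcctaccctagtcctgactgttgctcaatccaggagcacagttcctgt
Clec12a: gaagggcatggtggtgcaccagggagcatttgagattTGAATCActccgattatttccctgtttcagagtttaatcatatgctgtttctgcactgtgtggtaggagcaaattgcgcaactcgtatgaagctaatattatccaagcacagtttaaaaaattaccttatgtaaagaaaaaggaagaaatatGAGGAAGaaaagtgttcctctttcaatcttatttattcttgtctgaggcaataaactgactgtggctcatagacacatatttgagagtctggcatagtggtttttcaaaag
Cd68 holds 2 AP-1 matches, 149 and 24 bases before the start. Trem2 holds a PU.1-type ETS match 41 bases before the start and an AP-1 match 9 bases before it, and Clec12a holds an AP-1 match at 213 and a PU.1-type ETS match at 61 bases before the start. Over all windows the PU.1-type ETS letters occurred in 13.8% of 15002 windows of 11969 tested genes. They occurred in 29.9% of the windows of risen genes whose HFD PA level lay below all obese immune sorts, in 16.5% of those whose level lay above them, and in 7.89% of the windows of fallen genes. AP-1 letters occurred in 5.81% of all windows, 14.6%, 9.89% and 7.02% of those sets in turn. TEAD letters (GGAATG) occurred in 12.6% of all windows and in 18.2%, 20.9% and 10.5% of those sets. E-box letters (CACGTG) occurred in 9.2%, 5.84%, 3.3% and 5.26%, and STAT letters (TTCNNNGAA) in 6.96%, 4.38%, 8.79% and 6.14%. Both strands were searched, windows of 1 gene can overlap, and a match is a description of letters only.

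Some complement, lysosomal and chemokine genes rose as well. Of 14 complement genes 6 rose and 0 fell (median 0.86). C4b, a classical pathway component that also stromal cells make, rose by 3.06 ± 0.47 from 7.77, 6.05 and 6.66 to 10.22, 9.34 and 10.09 (adjusted p = 0.000797), and its level in obese PA exceeded that of all obese immune sorts. C3ar1, the receptor for the C3a fragment, rose by 2.74 ± 0.45 from 3.78, 4.77 and 4.22 to 6.73, 6.18 and 8.06 (adjusted p = 0.00162), and lay below all of them. C1qa, C1qb and C1qc, the chains of the initiator C1q and members of the macrophage list as well, rose by 1.99 ± 0.53, 2.58 ± 0.39 and 1.75 ± 0.33, and Cfb, the alternative pathway factor B, by 1.19 ± 0.29. In the fit of 6 arrays C4b, C3ar1 and Cfb passed; C1qa, C1qb and C1qc did not (adjusted p = 0.261, 0.0865 and 0.11). Cfb lost its call in the fit of all arrays on leaving out ND replicate 2 or 3 or HFD replicate 1, 2 or 3 (adjusted p as high as 0.142) and C1qa on leaving out ND replicate 2 or 3 or HFD replicate 1 or 3 (adjusted p as high as 0.312).

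Of 23 lysosomal and proton pump genes 4 rose (Atp6v0d2, Ctss, Lipa and Ctsb) and 22 differences were positive. Ctss, the protease cathepsin S of antigen-presenting cells, rose by 3.05 ± 0.46 from 7.96, 5.36 and 5.64 to 9.27, 8.64 and 10.19 (adjusted p = 0.000645), with ND replicate 1 the highest of the ND arrays. Lgmn, an asparaginyl endopeptidase of lysosomes, rose by 3.29 ± 0.32 from 6.76, 5.51 and 5.66 to 9.29, 8.84 and 9.67 (adjusted p = 1.16e-05). With 6 arrays in the fit Ctss missed the threshold (adjusted p = 0.101) and Lgmn passed (0.0161). Lipa, an acid lipase, lost its call in the fit of all arrays on leaving out ND replicate 1, 2 or 3 or HFD replicate 1 or 3 (adjusted p as high as 0.23), and Ctsb, cathepsin B, on leaving out ND replicate 2 or HFD replicate 3 (adjusted p as high as 0.0544).

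Of 26 chemokine genes 4 rose and 0 fell. Ccl8, a monocyte attractant, rose by 3.69 ± 0.69 from 6.24, 2.49 and 4.22 to 8.43, 7.33 and 8.25 (adjusted p = 0.00468). Ccl9 rose by 2.86 ± 0.54, Cxcl9, an interferon-induced attractant of T cells, by 2.76 ± 0.73, and Ccl6 by 2.00 ± 0.50. Ccl2, the main monocyte attractant, did not pass: it stood at 10.25, 7.88 and 9.39 in ND PA and 9.18, 10.13 and 9.64 in HFD PA (difference 0.47 ± 0.42, 95% confidence interval -0.41 to 1.36). None of the 4 chemokines passed in the fit of 6 arrays (adjusted p between 0.0865 for Cxcl9 and 0.291 for Ccl6), and in the fit of all arrays Ccl6 lost its call on leaving out ND replicate 2 or 3 or HFD replicate 1 or 3 (adjusted p as high as 0.231) and Cxcl9 on leaving out ND replicate 2 or 3 or HFD replicate 1, 2 or 3 (adjusted p as high as 0.298). Among 25 inflammatory cytokines and receptors 0 rose and 1 fell, Lif, a cytokine of the interleukin-6 family, which fell by 1.62 ± 0.31 from 6.55, 5.29 and 5.38 to 4.55, 4.20 and 3.64 (adjusted p = 0.00549). Lif missed the threshold in the fit of 6 arrays (adjusted p = 0.111) and on leaving out HFD replicate 3 (adjusted p = 0.0505) in the fit of all arrays. Of 20 interferon response genes 0 passed limma's test in either direction, and 0 had an unadjusted p under 0.05.

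The risen genes were set against the immune cells sorted from the same obese fat. Of the 262, 98 (37.4%) had a higher mean in HFD PA than in HFD CD11c- ATM, CD11c+ ATM and ATDC, 20 (7.63%) lay between these sorts and 144 (55%) lay below all of them. Among all tested genes the shares were 32.2%, 30% and 37.8%. The 98 genes held Mmp3, Timp1, Col8a1, Tnc, Acta2 and Tagln, and 75 of them exceeded the highest immune sort by more than 1 log2 unit. The 144 held Adgre1, Trem2, Clec12a and Atp6v0d2, and 99 of them lay more than 1 log2 unit below the lowest immune sort. The array with the highest value was counted in each set. HFD replicate 3 was the highest HFD array in 125 of the 144 genes and in 25 of the 98, and ND replicate 1 was the highest ND array in 115 of the 144 and in 47 of the 98. HFD replicate 2 was the lowest HFD array in 102 of the 144 and in 52 of the 98. Without HFD replicate 3, 42 of the 144 and 52 of the 98 passed, without HFD replicate 2 117 and 76 did, and without ND replicate 1 129 and 78 did. Fitted on the 6 PA arrays, 20 of the 144 and 42 of the 98 passed. The median rise was 1.81 in the 144 and 1.80 in the 98.

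**Figure D3:**
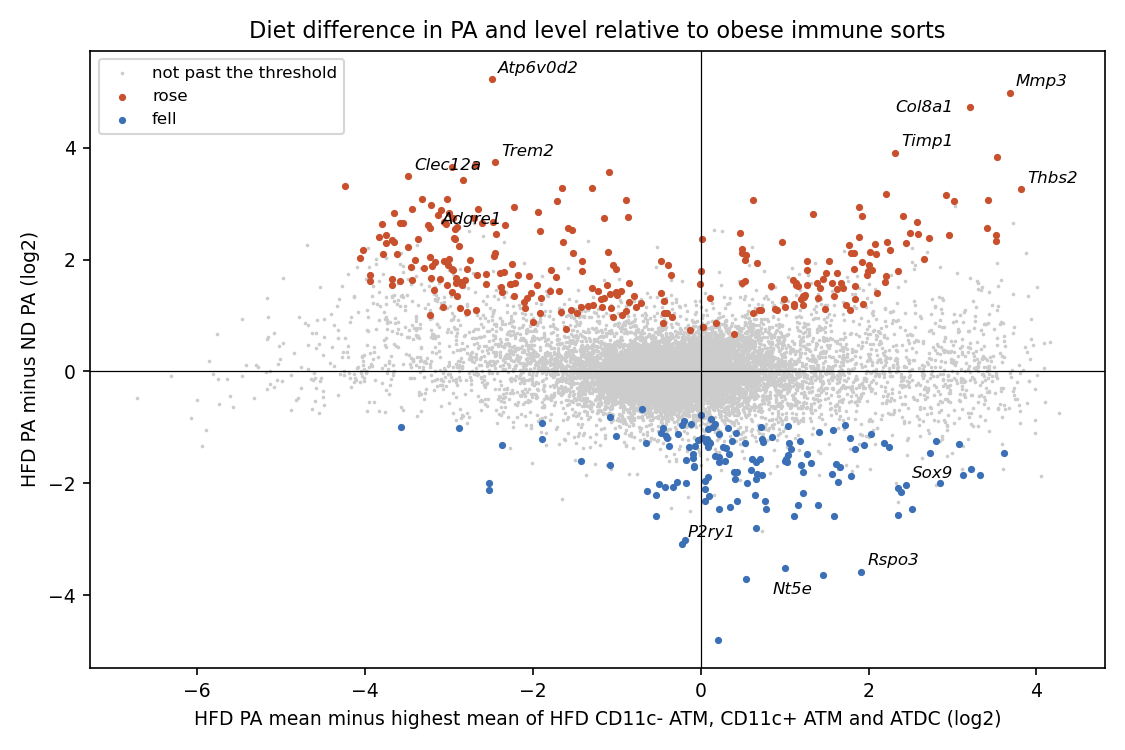
Diet difference in PA (vertical axis, log2) against the HFD PA mean minus the highest mean of the obese CD11c- ATM, CD11c+ ATM and ATDC (horizontal axis, log2), for 15496 genes. Genes that rose (red) fall into a set to the left, lower in PA than in an immune sort, with Atp6v0d2 and Trem2, and a set to the right with Mmp3 and Col8a1, while 99 of 139 genes that fell (blue) lie right of 0.

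Of the 139 genes that fell, 99 (71.2%) stood above all obese immune sorts in HFD PA, against 32.2% of all tested genes, 22 lay between them and 18 below. Of the 99, 46 exceeded the highest immune sort by more than 1 log2 unit. In 32 of the 139 no HFD array exceeded its median, so a rank above the immune sorts can be one among values too low to measure. The largest fall was that of Gpr165, an orphan receptor, at 7.35, 7.42 and 7.22 in ND PA and 2.50, 2.50 and 2.59 in HFD PA, where no array exceeded its median. It fell by 4.80 ± 0.80 (adjusted p = 0.00166), and the difference counted to the array median was -4.29, a least size. Lrrtm3, a leucine-rich repeat membrane protein, stood at 7.05, 8.06 and 7.90 in ND PA and 4.11, 4.00 and 3.78 in HFD PA and fell by 3.71 ± 0.54 (adjusted p = 0.000547). Fyb2, an adaptor protein of T cell signalling, fell by 3.52 ± 0.21 from 6.71, 6.81 and 7.34 to 3.42, 3.57 and 3.32 (adjusted p = 6.61e-09). Each of these 3 passed in all leave-outs and in the fit of 6 arrays.

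Genes of extracellular nucleotide signalling moved in both directions. Cells release ATP, ectoenzymes cut it step by step to adenosine, and P2 and adenosine receptors sense the products. Nt5e, which encodes CD73, the ectoenzyme that makes adenosine from AMP and a marker of mesenchymal stromal cells, stood at 7.88, 7.59 and 8.04 on the ND arrays and 4.39, 4.17 and 4.05 on the HFD arrays. It fell by 3.64 ± 0.24, 12.4-fold (95% confidence interval of the difference -4.14 to -3.14, adjusted p = 2.71e-08). P2ry1, a receptor for ADP, stood at 7.97, 8.69 and 8.18 in ND PA and 4.96, 5.63 and 5.0 in HFD PA and fell by 3.08 ± 0.45 (adjusted p = 0.000551). Both genes fell on every HFD array and passed in each leave-out and in the fit of 6 arrays (adjusted p = 0.000664 and 0.00716). The ATP receptor P2rx7 rose by 1.81 ± 0.26 from 4.96, 4.68 and 4.11 to 6.51, 5.84 and 6.84 (adjusted p = 0.000499) and the UDP receptor P2ry6 by 1.55 ± 0.37 from 6.63, 5.46 and 4.93 to 6.96, 6.58 and 8.11 (adjusted p = 0.0263), both below their level in the immune sorts. Both missed the threshold in the fit of 6 arrays (adjusted p = 0.0505 and 0.239), and P2ry6 also lost its call on leaving out ND replicate 2 or 3 or HFD replicate 3 (adjusted p as high as 0.191). The other 12 of the 16 tested genes of this list did not pass.

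The promoter of Nt5e is shown because its fall had the second smallest adjusted p, after that of Fyb2. It is the same kind of window, chr9:88327359-88327658 (plus strand, GRCm38.p6).
Nt5e: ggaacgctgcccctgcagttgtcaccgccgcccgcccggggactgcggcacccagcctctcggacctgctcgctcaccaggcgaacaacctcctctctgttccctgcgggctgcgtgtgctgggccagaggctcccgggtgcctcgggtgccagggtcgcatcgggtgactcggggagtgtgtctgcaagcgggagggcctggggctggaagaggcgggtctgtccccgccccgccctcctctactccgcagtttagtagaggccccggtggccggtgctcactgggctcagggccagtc
It holds none of the AP-1 or PU.1-type ETS letters, which says only that these letters are not in this window.

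Several secreted signals and receptors fell. Rspo3, an R-spondin that strengthens Wnt signalling, stood at 7.52, 8.27 and 7.81 in ND PA and 4.88, 2.68 and 5.30 in HFD PA and fell by 3.58 ± 0.47 (adjusted p = 0.000212), with HFD replicate 2 far under the other HFD arrays. Wnt5a and Wnt5b, ligands of noncanonical Wnt signalling, also fell, with differences of -1.49 ± 0.26 and -1.22 ± 0.30 (adjusted p = 0.00226 and 0.0333). Fzd1, a Wnt receptor, rose by 1.49 ± 0.27 from 5.85, 5.82 and 5.41 to 7.27, 6.80 and 7.48 (adjusted p = 0.00412), and Dkk3, of the Dickkopf family, by 0.86 ± 0.23 (adjusted p = 0.0477). These were 2 rises and 3 falls among 30 tested Wnt genes, and the list's median difference was 0.08. Wnt5b and Dkk3 lost their call in each of the 6 leave-outs (adjusted p as high as 0.125 and 0.18), and Wnt5a and Dkk3 missed the threshold in the fit of 6 arrays (adjusted p = 0.101 and 0.131).

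Pappa, the pappalysin that cleaves binding proteins of insulin-like growth factors, stood at 5.72, 6.22 and 6.23 in ND PA and 2.90, 3.72 and 3.82 in HFD PA and fell by 2.58 ± 0.26 (adjusted p = 1.33e-05), the only 1 of 15 tested genes of the insulin-like growth factor axis to pass. Igf1 itself missed the threshold, at 9.18, 9.50 and 9.48 in ND PA and 8.68, 8.19 and 8.56 in HFD PA (difference -0.91 ± 0.25, adjusted p = 0.0556), although its arrays did not overlap. Fgfr2, a receptor for fibroblast growth factors, stood at 5.06, 4.51 and 4.38 in ND PA and 2.67, 1.79 and 2.53 in HFD PA; it fell by 2.32 ± 0.29 (adjusted p = 0.000149). No HFD array exceeded its median for Fgfr2, and the difference counted to that median was -1.61, a least size. Angpt1, the angiopoietin that steadies vessels through the TIE2 receptor, fell by 1.85 ± 0.48 (adjusted p = 0.0463) but lost its call whichever PA array was left out (adjusted p as high as 0.189); with the mean of its probe rows the difference was -0.91 (adjusted p = 0.305). Together 0 rose and 2 fell among 27 FGF, PDGF, EGF and VEGF family genes. In the BMP pathway 1 of 19 genes passed, Bmp5, which fell by 1.24 ± 0.27 (adjusted p = 0.0162; 0.179 in the fit of 6 arrays) and lost its call on leaving out ND replicate 3 or HFD replicate 2 or 3 (adjusted p as high as 0.12).

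Further falls were in receptors, channels and regulators. Prokr1, a receptor for prokineticins, stood at 7.20, 7.78 and 7.54 in ND PA and 5.05, 4.16 and 4.89 in HFD PA and fell by 2.81 ± 0.40 (adjusted p = 0.000473), the only 1 of 19 tested peptide and amine receptors to pass. Pde11a, a phosphodiesterase of cyclic nucleotides, fell by 2.38 ± 0.31 from 6.00, 6.74 and 7.06 to 4.28, 4.39 and 3.97 (adjusted p = 0.000212), and Hpca, a neuronal calcium sensor, fell by 2.38 ± 0.26 from 6.44, 6.79 and 6.48 to 4.34, 4.03 and 4.18 (adjusted p = 2.53e-05). Lvrn, an aminopeptidase, fell by 2.47 ± 0.32, Clic6, a chloride intracellular channel family member, fell by 2.46 ± 0.25, and Colgalt2, a glycosyltransferase of collagen, fell by 2.46 ± 0.27. Rtl4, a gene derived from a retrotransposon, fell by 3.02 ± 0.23, Cdh19, a cadherin, fell by 2.32 ± 0.37, and Pirt, a regulator of TRP channels, fell by 2.59 ± 0.34. All 9 genes passed in each leave-out and in the fit of 6 arrays. Dio3os, an RNA from the strand opposite Dio3, the gene of the enzyme that inactivates thyroid hormone, fell by 2.58 ± 0.27 (adjusted p = 2.07e-05), and Dio3 fell by 1.60 ± 0.25 (adjusted p = 0.00091, and 0.0584 in the fit of 6 arrays); signal from the overlapping locus may be shared by the 2 probe sets. Sox9, a transcription factor of cartilage and of progenitor cells that restrains fat cell differentiation, stood at 8.46, 8.52 and 7.79 in ND PA and 6.48, 6.04 and 6.18 in HFD PA and fell by 2.03 ± 0.36 (adjusted p = 0.00286).

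Genes that define the preadipocyte state passed the test in few cases. Of 15 progenitor and fibroblast identity genes 0 passed limma's test, and 2 had an unadjusted p under 0.05, against 11.6% of all tested genes. Pdgfra stood at 10.24, 10.12 and 10.12 in ND PA and 9.99, 9.55 and 9.79 in HFD PA (difference -0.38 ± 0.73), and Cd34 at 10.74, 10.65 and 10.63 in ND PA and 10.48, 10.22 and 10.38 in HFD PA (-0.31 ± 0.40). Pdgfrb stood at 8.75, 8.65 and 8.22 in ND PA and 9.67, 9.40 and 9.35 in HFD PA (0.94 ± 0.67). The arrays of the 2 diets did not overlap for these 3 genes, as was found for 19.8% of all tested genes. The SE pools the spread within all 9 groups, immune sorts included. In the fit of 6 arrays the adjusted p of Pdgfra, Cd34 and Pdgfrb was 0.446, 0.503 and 0.106. Of 23 adipogenic transcription factors 0 passed limma's test and 0 had an unadjusted p under 0.05 (median -0.10). Pparg, the master regulator, stood at 7.44, 7.61 and 7.23 in ND PA and 7.45, 7.78 and 7.59 in HFD PA, a difference of 0.18 ± 0.26 with a 95% confidence interval of -0.37 to 0.73, and Cebpa at 6.78, 6.76 and 6.51 in ND PA and 6.55, 7.06 and 6.68 in HFD PA, 0.08 ± 0.33 with an interval of -0.60 to 0.76.

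Subsets of stromal cells known from single-cell work were read through their genes. Among 14 genes of early DPP4+ progenitors 0 passed limma's test and 4 had an unadjusted p under 0.05, against 11.6% of all tested genes. Of the 14 differences 3 were positive (median -0.31). Dpp4 stood at 7.80, 6.78 and 7.33 in ND PA and 6.90, 7.07 and 7.18 in HFD PA. Among 15 genes of committed ICAM1+ preadipocytes 2 rose, 0 fell and 15 differences were positive (median 0.49). Icam1, an adhesion molecule for leukocytes, stood at 6.10, 5.31 and 5.19 in ND PA and 7.42, 7.19 and 7.36 in HFD PA and rose by 1.79 ± 0.25 (adjusted p = 0.000397). Cd36, a fatty acid transporter that macrophages also carry, stood at 9.04, 8.92 and 8.44 in ND PA and 9.90, 10.16 and 10.36 in HFD PA and rose by 1.34 ± 0.20 (adjusted p = 0.000547). Both passed in each leave-out and in the fit of 6 arrays. Of 9 genes of CD142+ regulating cells 0 passed limma's test, and 5 had an unadjusted p under 0.05, 2 of them higher and 3 lower. Of 8 mature adipocyte markers 1 rose and 0 fell. This was Plin4, which coats lipid droplets, at 4.33, 3.94 and 2.80 in ND PA and 5.56, 4.27 and 6.01 in HFD PA (1.59 ± 0.42, adjusted p = 0.0473; 0.232 in the fit of 6 arrays), a call lost on leaving out ND replicate 2 or 3 or HFD replicate 1 or 3 (adjusted p as high as 0.295). Adipoq stood at 3.37, 3.80 and 3.00 in ND PA and 3.31, 4.75 and 3.57 in HFD PA, Plin1 at 3.59, 3.55 and 4.23 in ND PA and 4.07, 4.24 and 4.45 in HFD PA, and Fabp4, which preadipocytes, endothelium and macrophages also express, at 11.84, 11.38 and 11.23 in ND PA and 11.42, 11.84 and 11.43 in HFD PA. Adipoq, Plin1 and Fabp4 did not pass (adjusted p = 0.653, 0.644 and 0.963).

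Cell cycle genes rose in part. Of 38 tested, 7 rose, 0 fell and 36 differences were positive (median 0.79). Ccnb2, a mitotic cyclin, rose by 2.51 ± 0.44 from 4.91, 3.78 and 2.98 to 5.51, 6.99 and 6.69 (adjusted p = 0.00279), Rrm2, a subunit of ribonucleotide reductase, by 2.06 ± 0.51 from 3.97, 3.22 and 3.08 to 4.92, 5.43 and 6.11 (adjusted p = 0.0356), and Birc5, the mitotic protein survivin, by 1.70 ± 0.36 (adjusted p = 0.0131). HFD PA stood below all obese immune sorts for 36 of the 38 genes. The count depended on single arrays: it ran from 1, in each of 4 leave-outs, to 9 without HFD replicate 1, and was 2 in the fit of 6 arrays. Cdkn2c, an inhibitor of cyclin-dependent kinases, rose by 1.94 ± 0.42 from 4.39, 4.22 and 5.36 to 6.72, 6.31 and 6.77 (adjusted p = 0.0138), as the 1 of 9 genes of cell cycle arrest and senescence to pass, and lost its call on leaving out ND replicate 2 or HFD replicate 1 or 3 (adjusted p as high as 0.0884).

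Stress and metabolic lists had few calls. Of 28 stress and immediate early genes, 18 genes of the unfolded protein response and 18 of glycolysis and hypoxia, 0 passed limma's test in each. In turn 2, 1 and 2 had an unadjusted p under 0.05, against 11.6% of all tested genes. Of 17 genes of cholesterol and fatty acid synthesis 1 fell, Sc5d, a late enzyme of cholesterol synthesis, which fell by 1.27 ± 0.32 (adjusted p = 0.0401), and of 17 NRF2 and oxidative stress genes 1 fell, Gclc, the rate-limiting enzyme of glutathione synthesis, which fell by 1.15 ± 0.31 (adjusted p = 0.0489). Sc5d and Gclc lost their call in each of the 6 leave-outs (adjusted p as high as 0.177 and 0.166). In the prostaglandin and leukotriene pathway 3 of 19 rose: Hpgds, the prostaglandin D synthase of haematopoietic cells (2.63 ± 0.58), Alox5ap, the activating protein of 5-lipoxygenase (2.00 ± 0.53), and Ptger4, a receptor for prostaglandin E (1.55 ± 0.27). All 3 lay below the obese immune sorts, and none passed in the fit of 6 arrays; Hpgds lost its call on leaving out ND replicate 1 or 3 or HFD replicate 3 (adjusted p as high as 0.114) and Alox5ap on leaving out ND replicate 2 or 3 or HFD replicate 1 or 3 (adjusted p as high as 0.295). Of 12 endothelial markers 1 rose, Pecam1, the junction protein CD31, at 5.60, 4.69 and 3.63 in ND PA and 5.81, 6.50 and 6.30 in HFD PA (1.56 ± 0.40, adjusted p = 0.0419; 0.185 in the fit of 6 arrays), a call lost on leaving out ND replicate 2 or 3 or HFD replicate 1, 2 or 3 (adjusted p as high as 0.268).

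**Figure D4:**
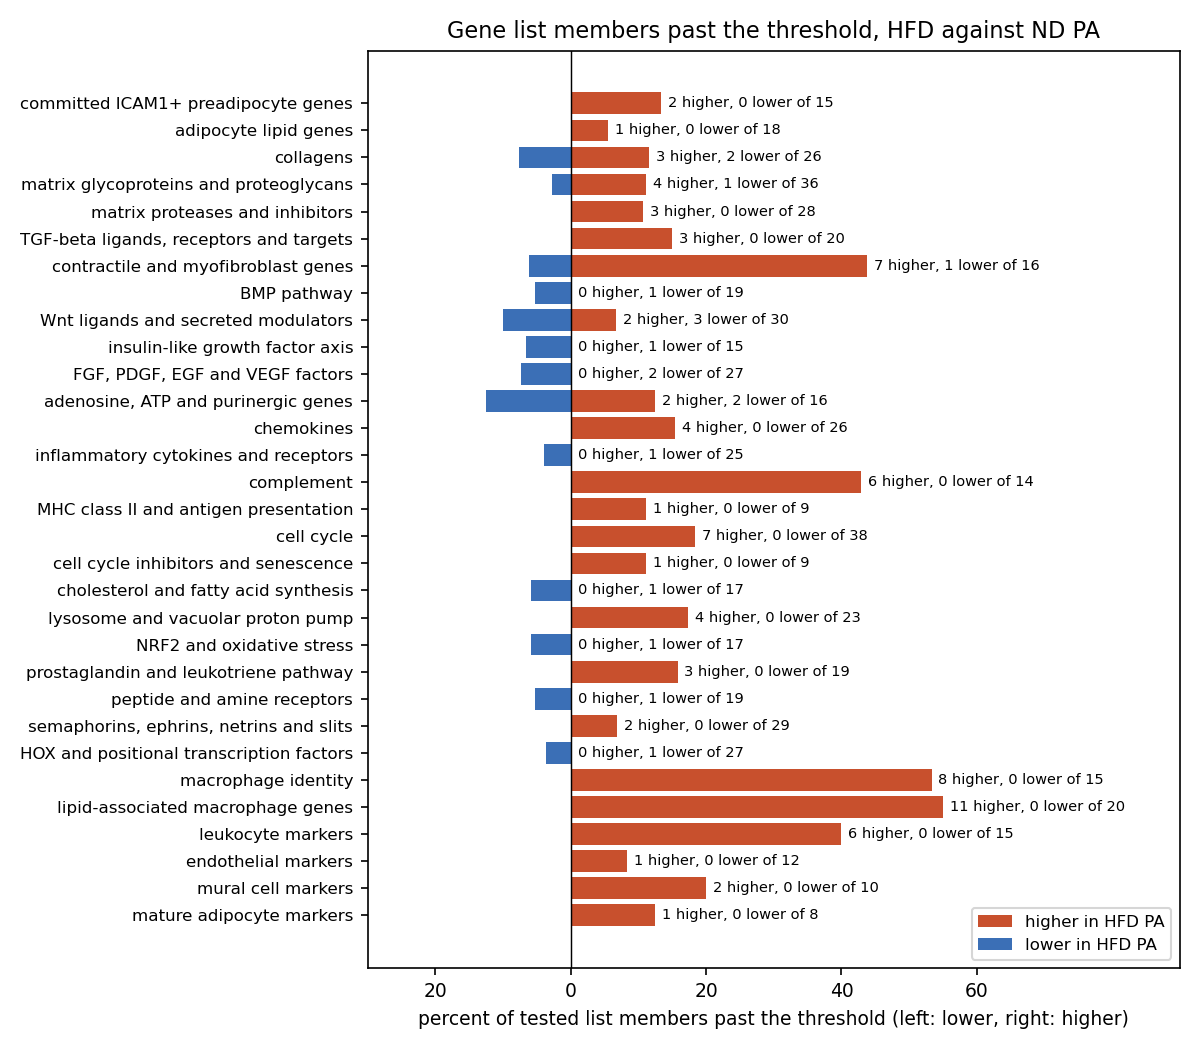
Percent of the tested members of each gene list that passed the test (horizontal axis; right and red, higher in HFD PA; left and blue, lower), with the counts beside each bar; lists with no member past the threshold are left out. The longest bars to the right belong to the lipid-associated macrophage (11 of 20), macrophage identity (8 of 15), contractile (7 of 16) and complement (6 of 14) lists. Over all tested genes 1.69% were higher and 0.897% lower.

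Precursor RNAs of miRNA genes were among the features. Of 215 tested miRNA genes 2 passed, both higher in HFD PA, a smaller share than the 2.59% of all tested genes that passed. Mir199a-1 stood at 1.58, 2.14 and 2.82 on the ND arrays and 3.10, 5.70 and 3.62 on the HFD arrays and rose by 1.97 ± 0.48 (adjusted p = 0.0294). Mir5124a stood at 1.68, 1.86 and 2.54 in ND PA and 4.11, 6.76 and 3.65 in HFD PA and rose by 2.81 ± 0.62 (adjusted p = 0.0166). HFD replicate 2 was the highest array for both, and no ND array exceeded its median, which gives least rises of 1.10 and 1.79. Mir199a-1 lost its call on leaving out ND replicate 1 or 2 or HFD replicate 2 (adjusted p as high as 0.109) and Mir5124a on leaving out ND replicate 2 or HFD replicate 2 (adjusted p as high as 0.0729), and neither passed in the fit of 6 arrays (adjusted p = 0.231 and 0.137). The probes read RNA from the locus, and the mature miRNAs were not measured. Their mature sequences are shown as the products of the 2 loci, from RefSeq (GRCm38.p6), with the seed (bases 2 to 8), which pairs with targets, in capitals.
mmu-miR-199a-5p: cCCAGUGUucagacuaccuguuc
mmu-miR-199a-3p: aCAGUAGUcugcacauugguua
mmu-miR-5124a: gGUCCAGUgacuaagagcau
The 3 seeds differ from each other.

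The diet difference in PA was set against that in CD11c- ATM, an immune sort collected from mice on both diets, with no array in common with PA (HFD 3 arrays, ND 2). ATDC were also collected on both diets; their diet difference was not analysed here. In CD11c- ATM 95 genes passed (0.613%), 68 higher and 27 lower. Higher in both sorts were 12 genes, 4.58% of the 262 risen in PA and 17.6% of the 68 risen in CD11c- ATM; they included Atp6v0d2, Timp1, Mmp12, Postn and Itgax. No gene was lower in both. Timp1 rose by 3.91 ± 0.58 in PA and by 4.02 ± 0.65 in CD11c- ATM, Mmp12 by 3.56 ± 0.45 and 3.84 ± 0.50, and Postn, which is known as a stromal product, by 2.17 ± 0.48 and 4.75 ± 0.54. Stromal signal also moved in the macrophage sort: the progenitor and fibroblast list stood at a median of 6.27 in ND and 8.16 in HFD CD11c- ATM, and its part in these shared rises was not tested.

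A test of the difference between the 2 diet effects passed for 43 genes (0.277%). It treated all arrays as independent, and whether PA and CD11c- ATM arrays came from the same pools of mice was not checked. Most negative were P2ry1, -3.08 ± 0.45 in PA against 1.28 ± 0.51 in CD11c- ATM (difference of the effects -4.36 ± 0.68, adjusted p = 0.00541), and Rspo3, -3.58 ± 0.47 against 0.36 ± 0.53 (-3.94 ± 0.71, adjusted p = 0.0152). Nt5e, with -3.64 ± 0.24 against -0.68 ± 0.27, also passed (-2.96 ± 0.36, adjusted p = 0.000246). Most positive were Mmp9, the gelatinase B, and Pla2g2d, a secreted phospholipase, which passed in CD11c- ATM and not in PA. Mmp9 differed by -0.16 ± 0.32 in PA and by -4.80 ± 0.35 in CD11c- ATM (4.64 ± 0.47, adjusted p = 2.6e-05). Tmem176a and its neighbour Tmem176b rose in PA by 3.29 ± 0.42 and 3.07 ± 0.32 and differed by -0.25 ± 0.47 and -0.30 ± 0.36 in CD11c- ATM, where both were already high on ND; the 2 genes are related, and their probes may share signal. Pparg differed by 0.18 ± 0.26 in PA and rose by 2.09 ± 0.29 in CD11c- ATM (-1.91 ± 0.39, adjusted p = 0.0427). Without ND CD11c- ATM replicate 1 the count fell to 13, and without ND PA replicate 1 it was 129.

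**Figure D5:**
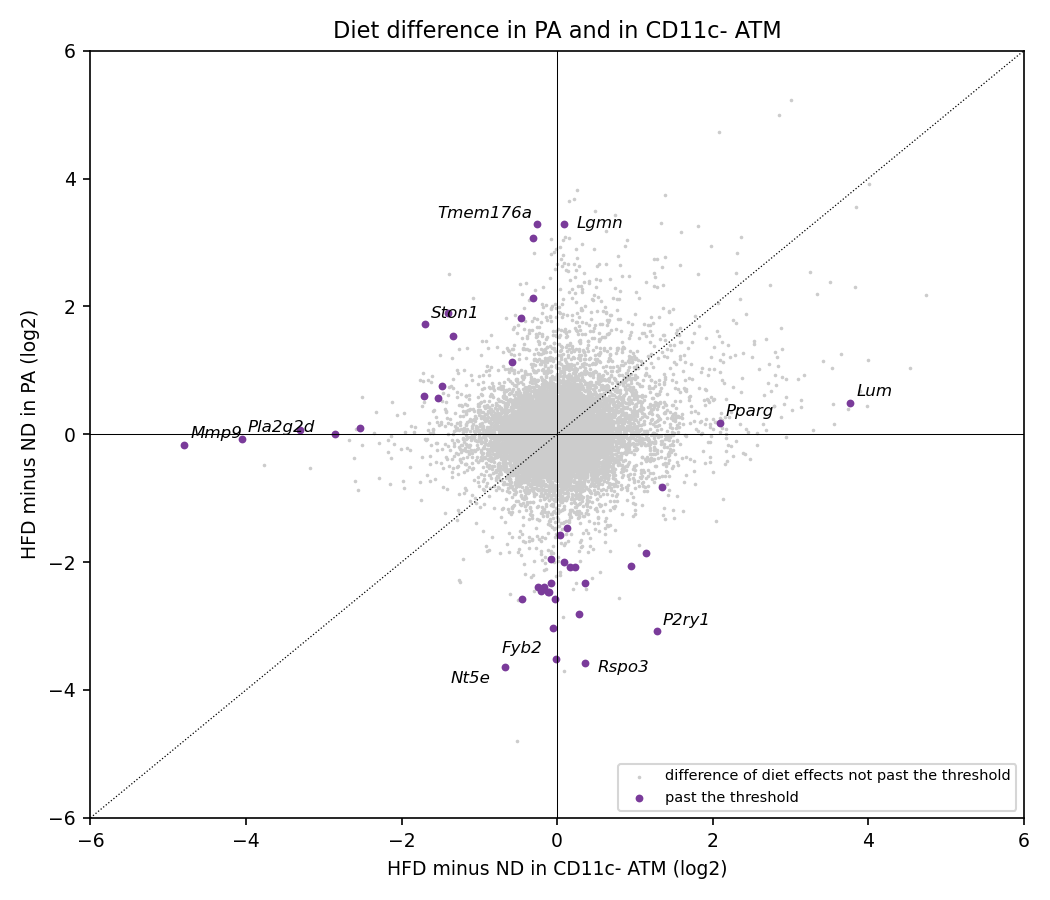
Diet difference in PA (vertical axis, log2) against that in CD11c- ATM (horizontal axis, log2) for 15496 genes; purple marks the 43 genes whose 2 differences differ past the threshold and the dotted line marks equal differences. Nt5e, Rspo3 and P2ry1 lie low on the vertical axis and Mmp9 and Pla2g2d lie far left on the horizontal axis.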

How the data were processed

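The deposited log2 values came from 24 single-colour arrays that, per the submitters' processing notes, were made with RMA, oligo and limma; settings and versions are not given there. Of 41345 probe rows, 23521 had 1 gene symbol, 1814 had several and 16010 were unnamed here; the row with the highest mean stood for each of 22180 genes. The test kept the 15496 genes above the array's median on 2 or more arrays. Limma 3.58.1 (lmFit, eBayes, R 4.3.3) was fitted to 9 groups, with 15 residual degrees of freedom and Benjamini-Hochberg adjustment; every adjusted p is limma's and two-sided, and intervals are 95%. The number of arrays limits the precision. The model was run on simulated data with normal noise and 1 spread per gene for all groups, as the fit assumes. That run cannot show how unequal spreads between groups affect the calls. Alternatives were fewer arrays, filters, probe rows, scalings, array weights, the variance prior, a replicate block and leave-outs.

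Genes were named by a rule: in each direction the 20 largest changes without overlap, up to 4 passing members per list, defining members, and for the difference of diet effects the 5 most positive and 5 most negative. Genes outside it, such as Sox9, Dio3, Tpm2, Palld, C1qc, Dkk3, Col4a3, the miRNA genes and those under other observations, were singled out after their values were seen. Members and lists were chosen with earlier results of these data known. Promoter and miRNA sequences are RefSeq's (GRCm38.p6); 11969 of 15496 genes matched a promoter.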

Additional observations from a re-analysis of the deposited data

Results flagged for a closer look

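For 24 named genes, of 43 in all, the diet effect in PA differed from that in CD11c- ATM past the adjusted p threshold of limma's test of that difference. They are given as the PA effect minus the CD11c- ATM effect on the log2 scale. No cause was tested for any of them.

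In 5 genes a rise passed in PA, while the difference in CD11c- ATM did not pass or was opposite. The value was 3.54 for Tmem176a, 3.37 for its neighbour Tmem176b, 3.2 for Lgmn, 2.27 for P2rx7 and 3.43 for Ston1, an endocytic adaptor. Ston1 rose by 1.72 ± 0.23 in PA and differed by -1.70 ± 0.26 in CD11c- ATM (adjusted p = 0.00292), the 1 gene with calls of opposite direction. Lgmn averaged 10.80 in ND and 10.89 in HFD CD11c- ATM, against 6.76, 5.51 and 5.66 on the ND PA arrays.

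In 4 genes the diet difference passed in CD11c- ATM and not in PA. Mmp9 gave 4.64 and Pla2g2d 3.99, with CD11c- ATM means that went from 9.42 to 4.62 and from 9.63 to 5.57 between ND and HFD. Pparg gave -1.91 and Lum, a collagen-binding proteoglycan of stroma, -3.27. Lum went from 5.53 to 9.30 in CD11c- ATM, where the progenitor and fibroblast list went from 6.27 to 8.16.

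The other 15 genes fell in PA. P2ry1 gave -4.36, Rspo3 -3.94, Fyb2 -3.5, Prokr1 -3.09, Rtl4 -2.97 and Nt5e -2.96. Cdh19 gave -2.68, Dio3os -2.55, Clic6 -2.36, Lvrn -2.35, Colgalt2 -2.25 and Fgfr2 -2.24. Pde11a gave -2.22, Hpca -2.14 and Pappa -2.13. The CD11c- ATM levels of these genes are not listed here. A gene too low to measure in CD11c- ATM cannot fall there, and its value then repeats the fall in PA. Fgfr2 stood lower in HFD CD11c- ATM than in HFD PA, where no array exceeded its median. Without ND CD11c- ATM replicate 1, 1 of 2 lean macrophage arrays, 13 of the series' tested genes passed this test in place of 43.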

How the results depend on the processing

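Among the named genes no called direction in PA reversed under the alternatives run, and the other called genes were not checked for this. With the 6 PA arrays alone, 180 genes passed in place of 401 (90 higher, 90 lower), 49 of the named genes in place of 99 and 38 list members in place of 89. With array weights the counts were 1119 genes (748 higher, 371 lower), 172 list members and 234 genes for the difference from CD11c- ATM in place of 43. Leaving out 1 array gave 177 to 505 genes past the threshold, 104 to 368 higher, 73 to 137 lower, 58 to 90 named genes and 40 to 109 list members; the difference from CD11c- ATM gave 13 to 129. Filters, probe rows, scalings and the variance prior gave 339 to 459 genes. Without the filter 12 of the named genes missed the threshold, among them Alox5ap, Angpt1, C1qa, Col12a1, Cxcl9, Gclc, Mfap4, Pecam1 and Sc5d. With array medians subtracted 9 did, among them Alox5ap, Angpt1, C1qa, Cxcl9, Gclc, Pecam1 and Tgfbi. With mean probe rows Alox5ap, Angpt1, Ccn2 and Rrm2 did, and under quantile normalization Sc5d did. Same-numbered ND and HFD arrays deviated with r of -0.02, 0.086 and -0.131, and differently numbered ones with r from -0.136 to 0.195. These values gave no ground to pair the samples by number, although 3 arrays per group cannot exclude a pairing. The replicate block gave 421 genes, 371 of them shared, and 25 for the difference from CD11c- ATM. The cause of these changes was not tested. Genes not above the array median give least differences.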

Other observations

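Genes of vessels moved in part with diet. Gpihbp1, which anchors lipoprotein lipase on capillaries, stood at 7.77, 5.88 and 5.02 in ND PA and 7.82, 8.73 and 8.10 in HFD PA and rose by 2.00 ± 0.48 (adjusted p = 0.0266). Adgrf5, an adhesion receptor of endothelium, stood at 5.39, 3.57 and 4.08 in ND PA and 6.13, 6.43 and 6.39 in HFD PA and rose by 1.97 ± 0.36 (adjusted p = 0.00388). Plvap, a protein of capillary fenestrae, rose by 1.54 ± 0.31 (adjusted p = 0.00828). ND replicate 1 was the highest ND array for all 3 genes. The list of 12 endothelial markers stood at a median of 4.38, 3.27 and 3.13 on the ND arrays and 4.42, 4.81 and 4.49 on the HFD arrays. Of its 12 differences 11 were positive and 1 passed the adjusted threshold. An unadjusted p under 0.05 was found for 10, against 11.6% of all tested genes. Cdh5, the cadherin of endothelial junctions, missed the threshold (difference 2.23 ± 0.61, adjusted p = 0.0556). Gpihbp1 lost its call on leaving out ND replicate 2 or 3 or HFD replicate 2 or 3 (adjusted p as high as 0.183) and Plvap on leaving out ND replicate 2 or 3 or HFD replicate 1 (adjusted p as high as 0.0603), and in the fit of 6 arrays the adjusted p was 0.213, 0.0892 and 0.11. The part of endothelial cells in these values was not tested.

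Enzymes of serine, glycine and folate metabolism fell or rose singly. Psat1, the aminotransferase of serine synthesis, stood at 7.18, 7.91 and 7.58 in ND PA and 5.54, 5.16 and 5.76 in HFD PA and fell by 2.07 ± 0.33 (adjusted p = 0.00118). Aldh1l1, a folate dehydrogenase, stood at 5.64, 5.49 and 5.04 in ND PA and 3.10, 3.79 and 3.33 in HFD PA and fell by 1.99 ± 0.30 (adjusted p = 0.000796). Gldc, the glycine decarboxylase, rose by 1.36 ± 0.24 from 3.39, 2.45 and 2.64 to 4.34, 4.09 and 4.14 (adjusted p = 0.00344). Psat1 and Aldh1l1 also passed in the fit of 6 arrays, and Gldc did not (adjusted p = 0.0727). Prodh, the proline dehydrogenase, fell by 1.20 ± 0.22 from 4.00, 4.06 and 3.93 to 2.97, 2.88 and 2.54 (adjusted p = 0.00409). No HFD array exceeded its median for Prodh, so its fall counted to the median is smaller than the value given.

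Both subunits of soluble guanylate cyclase, the receptor of nitric oxide, rose. Gucy1a1 stood at 3.50, 2.51 and 3.48 in ND PA and 6.59, 5.86 and 5.87 in HFD PA and rose by 2.94 ± 0.59 (adjusted p = 0.00828). Gucy1b1 stood at 2.98, 4.73 and 4.49 in ND PA and 6.75, 5.79 and 6.55 in HFD PA and rose by 2.30 ± 0.60 (adjusted p = 0.0473). Gucy1a1 lost its call on leaving out ND replicate 2 (adjusted p = 0.0603) and Gucy1b1 on leaving out ND replicate 1, 2 or 3 or HFD replicate 1 or 3 (adjusted p as high as 0.182).

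Cthrc1, a secreted protein of activated fibroblasts, stood at 3.91, 4.66 and 4.01 in ND PA and 5.98, 6.38 and 6.62 in HFD PA and rose by 2.13 ± 0.28 (adjusted p = 0.000212), in every leave-out and in the fit of 6 arrays. Il34, a ligand of the macrophage growth factor receptor CSF1R, stood at 4.71, 3.70 and 5.16 in ND PA and 6.32, 5.83 and 6.22 in HFD PA and rose by 1.60 ± 0.41 (adjusted p = 0.0426), but lost its call on leaving out ND replicate 1 or 2 or HFD replicate 1, 2 or 3 (adjusted p as high as 0.271). Among receptors, Chrm3, a muscarinic acetylcholine receptor, fell by 1.89 ± 0.36 from 5.65, 4.90 and 3.83 to 2.56, 2.99 and 3.14, Lpar3, a receptor for lysophosphatidic acid, fell by 1.85 ± 0.35 from 5.03, 5.09 and 4.94 to 2.31, 4.34 and 2.86, and Mc2r, the receptor for corticotropin, fell by 1.61 ± 0.28 from 4.22, 2.83 and 3.69 to 1.63, 1.81 and 2.47. The adjusted p was 0.00597, 0.00464 and 0.00226 with all arrays and 0.102, 0.125 and 0.11 in the fit of 6 arrays. For Mc2r no HFD array exceeded its median, and ND replicate 2 did not either. Counted to the median, its fall is smaller than the value given. No cause was tested for the patterns above.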
